A study of Homo sapiens with 6 samples.

Results

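The RAB GTPases of BT-549/tet-WDR5shRNA cells were taken as every row of the deposited expression table whose gene symbol was RAB followed by a number, with an optional letter, and whose gene is annotated as protein coding. Antisense transcripts and pseudogenes were left out. This rule used names and no measured value, and it found 60 genes of the 19792 in the table. The family symbols RAB4B, RAB19 and RAB41 had no row and were not analysed here.

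RAB GTPases are the largest branch of the RAS superfamily of small GTP-binding proteins. Each switches between a GDP-bound form, held soluble in the cytosol, and a GTP-bound form that sits on a particular membrane and recruits effectors such as tethers, motors and sorting proteins, so the set of RABs on an organelle gives it an identity and sets where its vesicles go. Exchange factors turn RABs on, GTPase-activating proteins turn them off, and geranylgeranyl groups attached to cysteines at the C-terminus hold them in the membrane. In breast cancer cells this machinery is known for carrying receptors, integrins and matrix proteases to and from the cell surface and for the release of exosomes.

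BT-549 is an established line of human breast cancer cells of the triple-negative class. A tetracycline-inducible shRNA had been introduced against WDR5, a WD-repeat subunit shared by the complexes that methylate lysine 4 of histone H3, and both groups carried it. For RNA-seq, 3 samples were treated with 0.1% DMSO as vehicle and 3 with 500 ng/ml doxycycline (DOX). A figure legend of the study gives the treatment as 7 days, and the sample records give the cells as cultured in triplicate. The table analysed here gives, for each gene, the authors' mean normalized count over all 6 libraries and the authors' own comparison of the groups, which was not used. Levels are therefore described over vehicle and DOX together, without a value for each sample, an SD or a test, and DOX and vehicle are not compared. The depth of each library is unknown, as the table holds no count of a single library. The targeted gene WDR5 (chromosome 9, 134135365 to 134159968) had a mean normalized count of 1143, and how far it was silenced in each sample was not analysed here.

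Per kilobase (kb) of transcript, all 6 mesenchymal markers had higher mean normalized counts (627 for SNAI2 and above) than any of the 8 epithelial ones (308 for KRT18 and below). VIM, encoding the intermediate filament vimentin, had a mean normalized count of 47782, and the other mesenchymal markers FN1, ZEB1, CDH2, SNAI2 and TWIST1 lay between 30461 and 1262. Among 8 epithelial markers, 6 reached a mean normalized count of 10, the minimum used here for a gene to be described as detected. EPCAM was at 1.30, GRHL2 at 6.27, ESRP1 at 13.0, KRT19 at 17.7, CLDN4 at 27.4, KRT8 at 57.3, CDH1 (E-cadherin) at 59.6 and KRT18 at 435. The leukocyte gene PTPRC was at 44.7.

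Members of the family share short motifs that bind and hydrolyse GTP, and they differ most at the C-terminus. The first set of sequences shows the codons of the conserved stretch around the catalytic residue of the second switch region, for the 2 RABs with the highest levels and for the 4 members that depart from the common residue. Each is written 5′ to 3′ on the coding strand from the canonical GENCODE 44 transcript (GRCh38), and the capitals mark the codon of that residue.
RAB7A (chromosome 3, plus strand, residue 67): tgggacacagcaggaCAGgaa
RAB27B (chromosome 18, plus strand, residue 78): tgggacactgcgggaCAAgag
RAB20 (chromosome 13, minus strand, residue 59): tgggacaccgcagggCGGgag
RAB24 (chromosome 5, minus strand, residue 67): tgggacacagcaggcTCTgag
RAB25 (chromosome 1, plus strand, residue 71): tgggacacagctggcCTGgag
RAB42 (chromosome 1, plus strand, residue 74): tgggacaccgcgggcCACgag

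The codon read as glutamine in 56 of the 60 members, as arginine in RAB20, as serine in RAB24, as leucine in RAB25 and as histidine in RAB42. Among the codons counted, 39 glutamines were written CAG and 16 CAA, with RAB2A left out of that count. Glutamine carriers held 99.1% of the summed level of the family (the mean normalized count per kilobase of transcript, added over members). Of the exceptions, RAB24 was at 215 per kb, RAB20 at 87.4, RAB42 at 15.9 and RAB25 at 0.191.

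The second set shows the last 4 codons before the stop codon, where the capitals mark cysteine codons, the positions that can receive geranylgeranyl groups. It holds one member for each arrangement of cysteines seen in the family.
RAB1B (chromosome 11, plus strand): ggtggcTGTTGC
RAB7A (chromosome 3, plus strand): agcTGCagtTGC
RAB5C (chromosome 17, minus strand): TGCTGCagcaac
RAB13 (chromosome 1, minus strand): TGCtccctgggc
RAB6C (chromosome 2, plus strand): gtctcgtggagg

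As in RAB1B, 15 members ended in an adjacent pair of cysteines, and all 15 reached the minimum. The spaced pair of RAB7A, with 1 residue between the cysteines, was shared by 18 members, of which 17 reached it. An adjacent pair followed by other residues, as in RAB5C, was found in 9 members, of which 6 reached it. A single cysteine, as in RAB13, was found in 16, of which 13 reached it. In the whole family 88.3% of members reached the minimum. The adjacent terminal pair held 37.9% of the family level per kb, the spaced pair 31.6%, the single cysteine 18.6% and the pair before the end 11.7%. RAB6C and RAB6D had no cysteine in these 4 residues, both reached the minimum and they held 0.143%. Their levels are uncertain, since both share sequence with RAB6A and with each other. The RAB11 proteins end in a cysteine pair that begins farther from the stop codon, and when 5 residues were read the single cysteine was left in 10 members and the adjacent pair before the end was found in 15.

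Most of the family was present. Of the 60 RABs, 53 reached a mean normalized count of 10, or 88.3%, against 68.5% of all genes in the table and 78.3% of 15551 protein-coding genes with a transcript length. A mean normalized count of 1000 or more was found for 28 members, or 46.7%, against 35.0% of those protein-coding genes. Another 18 members lay between 100 and 1000 and 7 between 10 and 100.

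The 7 RABs under the minimum were RAB26 at 9.82, RAB37 at 1.07, RAB17 at 0.947, RAB40A at 0.458, RAB25 and RAB3C at 0.210 each and RAB44 at 0.143. RAB3C, RAB26, RAB37 and RAB44 are RABs of regulated secretion, which neurons, glands and blood cells use to release stored granules. RAB17 and RAB25 serve recycling in polarized epithelium, and RAB40A belongs to the RABs that carry a SOCS box for binding a ubiquitin ligase. RAB26 was the closest to the minimum from below and RAB43, at 10.8, the closest from above.

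A longer transcript yields more fragments, so levels of different genes are given below mainly as the mean normalized count divided by the length of the canonical transcript in kilobases. The counts of genes past a minimum above carry no such correction. On that scale the median RAB stood at 189 per kb, against 80.1 for 18322 genes with a length and 128 for the protein-coding genes among them. The median percentile of the members among all genes was 62.7, with 13 members in the top 10% of genes and 20 below the median gene. All RABs together held 0.443% of the summed mean normalized counts of the table.

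**Figure D1:**
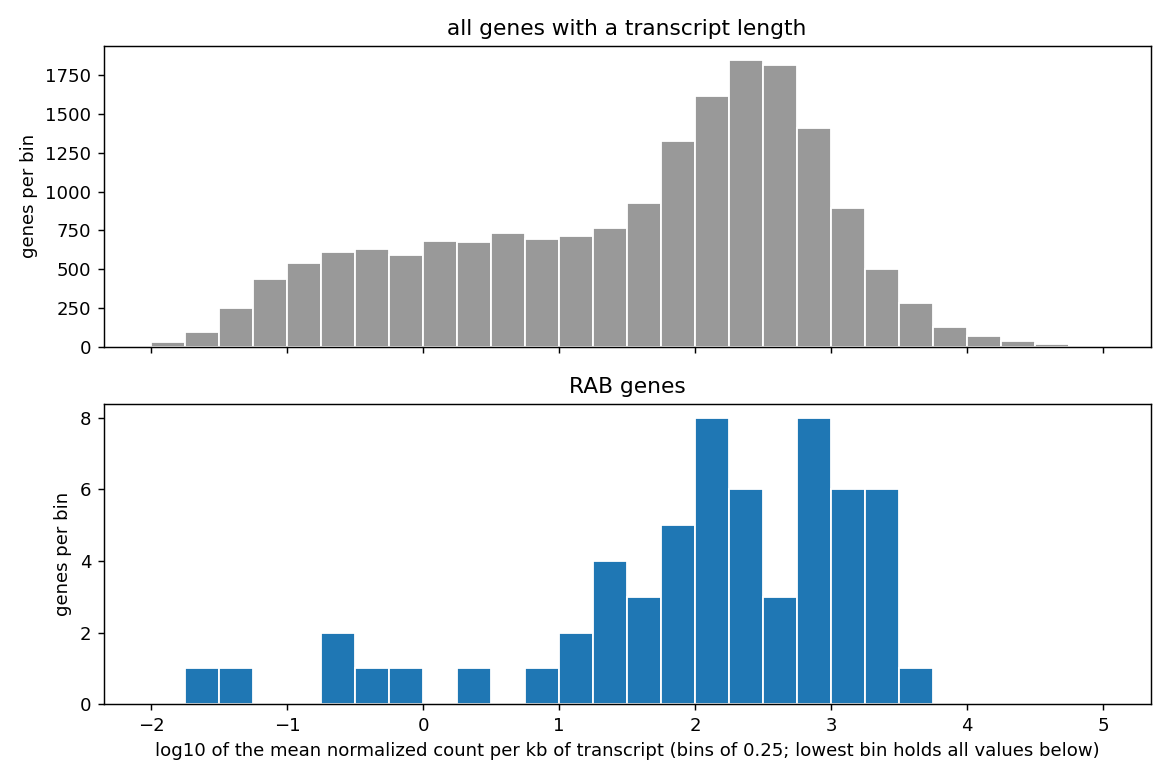
Histograms of the log10 mean normalized count per kilobase of transcript, in bins of 0.25, for all genes with a transcript length (upper panel) and for the 60 RABs (lower panel), with the number of genes per bin on the vertical axes. Most RABs lie in the upper peak of the distribution, around a median of 189 per kb, and RAB43 at 2.42 per kb lies in the low tail with the 7 members whose mean normalized count was under 10. The level of RAB43 is uncertain, since most of its transcript is shared with other genes.

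A few members made up much of the family. The 10 highest held 60.9% of the family level per kb, and the 3 highest, RAB7A, RAB27B and RAB2A, held 25.4%. RAB7A, which drives the fusion of late endosomes and autophagosomes with lysosomes, was the highest at 3780 per kb (mean normalized count 8258; chromosome 3, 128693669 to 128825942). RAB27B, which docks secretory vesicles and multivesicular bodies at the plasma membrane, followed at 2928 per kb (chromosome 18, 54717860 to 54895516), and its mean normalized count of 20505 was the largest of the family. RAB2A, a RAB of the ER to Golgi boundary, stood at 2387 per kb and RAB6A, a RAB of traffic within and out of the Golgi (chromosome 11, 73675638 to 73761137), at 2307. These 4 genes lay above the 95th percentile of all genes, where 2 further RABs, RAB13 and RAB31, were also found.

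Below them came RAB13, a RAB of junctions and directed exocytosis, at 2138 per kb (chromosome 1, 153981617 to 153986358), and RAB31, which works between the trans-Golgi network and endosomes, at 2009 per kb (chromosome 18, 9708275 to 9862551). RAB32, a RAB of lysosome-related organelles and mitochondria, reached 1806 per kb (chromosome 6, 146543833 to 146554953). RAB1B, required for transport from the ER to the Golgi, was at 1667 per kb, RAB10, a RAB of polarized and insulin-stimulated exocytosis, at 1430 and RAB5C, a RAB of early endosomes, at 1366. The order had no break at the tenth place, since RAB5C was 1.13 times RAB5A, the eleventh. Without an error for any of these means, neighbours in this order cannot be said to differ.

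The order depended in part on length. The RAB27B transcript is 7003 bases long, against 2185 for RAB7A, 1164 for RAB13 and 1065 for RAB32, while the coding parts of these genes are much closer in length. Per kilobase of coding sequence, RAB27B came first at 31353 and RAB7A stood at 13299, and RAB32, at 2849, took rank 21 in place of rank 7. Of the 10 highest members, 7 were the same when coding length was used and 6 when no length was used. RAB21, with the longest transcript of the family at 15558 bases, had a mean normalized count of 2341 but only 150 per kb, and RAB3B, at 12780 bases, had 1370 and 107 per kb.

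**Figure D2:**
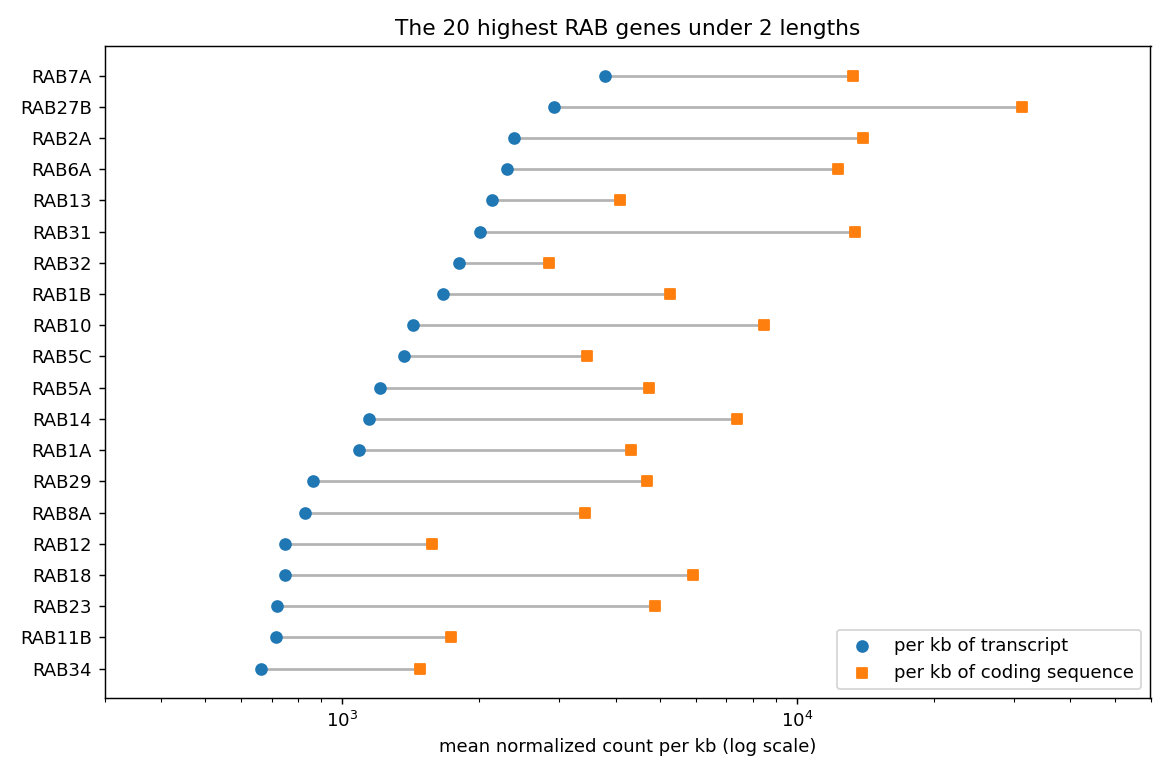
Levels of the 20 highest RABs as the mean normalized count per kilobase of transcript (circles) and per kilobase of coding sequence (squares), on a log axis. RAB7A is first by transcript length at 3780 and RAB27B by coding length at 31353.

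By role, ER to Golgi and Golgi traffic was the largest group, with 18 of the 60 RABs. These 18 held the largest share of the family level per kb, 27.3%, and all 18 reached the minimum. RAB2A was the highest of them. RAB18, a RAB of the ER and lipid droplets, was at 748 per kb and RAB34, which acts at the Golgi and in making cilia, at 661. RAB33B, which also acts in autophagy, was at 174 per kb, and RAB30, RAB36 and RAB33A were at 103, 84.9 and 63.9. The group reached down to RAB43 at 2.42 per kb, and the group median was 110 per kb, under the family median. The level of RAB43, whose mean normalized count of 10.8 was just over the minimum, is uncertain, since most of its transcript is shared with other genes. RAB6C and RAB6D, at mean normalized counts of 106 and 61.4, are uncertain too, since both share sequence with RAB6A and with each other.

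Early endosome RABs were all present. All 7 reached the minimum, from RAB20, a RAB of phagosomes and endosomes, at 87.4 per kb to RAB31 at 2009, and together they held 16.0%. The RAB5 proteins drive early endosome fusion, and all 3 isoforms were high, with RAB5C at 1366 per kb, RAB5A at 1213 and RAB5B at 652. RAB22A, the closest relative of RAB31 at 71.1% protein identity, was at 244 per kb.

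Late endosome and lysosome RABs held 14.7%, and RAB7A alone made up 71.8% of the group. RAB12, which acts in the degradation of recycling receptors, was at 750 per kb, and RAB9A, which returns cargo from late endosomes to the trans-Golgi network, at 430. RAB7B, which shares 48.7% of its residues with RAB7A, was at 68.7 per kb. Leaving out RAB7A from group and family took the share of the group to 4.63%.

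Of the RAB8 branch, which directs vesicles to the plasma membrane, all 4 members reached the minimum and held 12.8%. RAB13 was the highest, followed by RAB10 at 1430 per kb, RAB8A at 828 and RAB8B at 203. The lowest member of this group still exceeded the family median of 189.

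Regulated secretion was the most uneven group, with 5 of 9 members at the minimum. RAB27B held 85.4% of its level, and the group median was 23.4 per kb. RAB27A, which shares 72.5% of its residues with RAB27B and moves melanosomes and lytic granules, was at 112 per kb. Among the RAB3 proteins, which ready synaptic and other secretory vesicles for release, RAB3D was at 254 per kb, RAB3B at 107, RAB3A at 23.4 and RAB3C at 0.0237. The neuronal genes SYT1, STMN2 and SNAP25, measured in the same table, had mean normalized counts of 396, 143 and 129, and their part in the RAB3 levels was not tested.

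The group share of regulated secretion, 9.58% per kb of transcript, was 19.4% per kb of coding sequence and 19.9% with no division by length. Over the same changes the share of late endosome and lysosome RABs went to 9.40% and 9.66%. RAB27B and RAB7A, each the main member of its group, have transcripts of very different length.

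Recycling endosome RABs ran from 1146 per kb down to 0.191. RAB14, a RAB of recycling between Golgi, endosomes and the surface, was the highest, and the RAB11 proteins, which mark the recycling compartment, were at 715 (RAB11B) and 558 (RAB11A). RAB35, of the fast route back to the surface, was at 500 per kb, RAB4A at 165 and RAB15 at 49.3. The epithelial RAB25, which shares 62.1% of its residues with RAB11A, was at 0.191 per kb and RAB17 at 0.591, beside 8 epithelial markers of which 6 reached the minimum, with mean normalized counts from 1.30 (EPCAM) to 435 (KRT18). The part of these markers in the RAB levels was not tested. In all, 6 of the 8 members reached the minimum and the group held 8.75%.

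Among lysosome-related organelle RABs, RAB32 and RAB38 share 66.8% of their residues and act together in bringing pigment enzymes to melanosomes, but they differed in level, at 1806 against 54.5 per kb. RAB29, a RAB of the Golgi and stressed lysosomes, was at 863 per kb, and the 3 genes held 7.60%, or 4.15% by coding length. Of the melanocyte markers, MITF had a mean normalized count of 560, PMEL of 6.06 and DCT of 2.77, and MLANA and TYR had no row.

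Smaller roles closed the list. RAB23, which restrains Hedgehog signalling at the cilium, was at 718 per kb and RAB28, a RAB of cilia and photoreceptors, at 285, together 2.80%. The SOCS box RABs held 0.419%, with RAB40C at 121 per kb, RAB40B at 28.5 and RAB40A at 0.233.

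**Figure D3:**
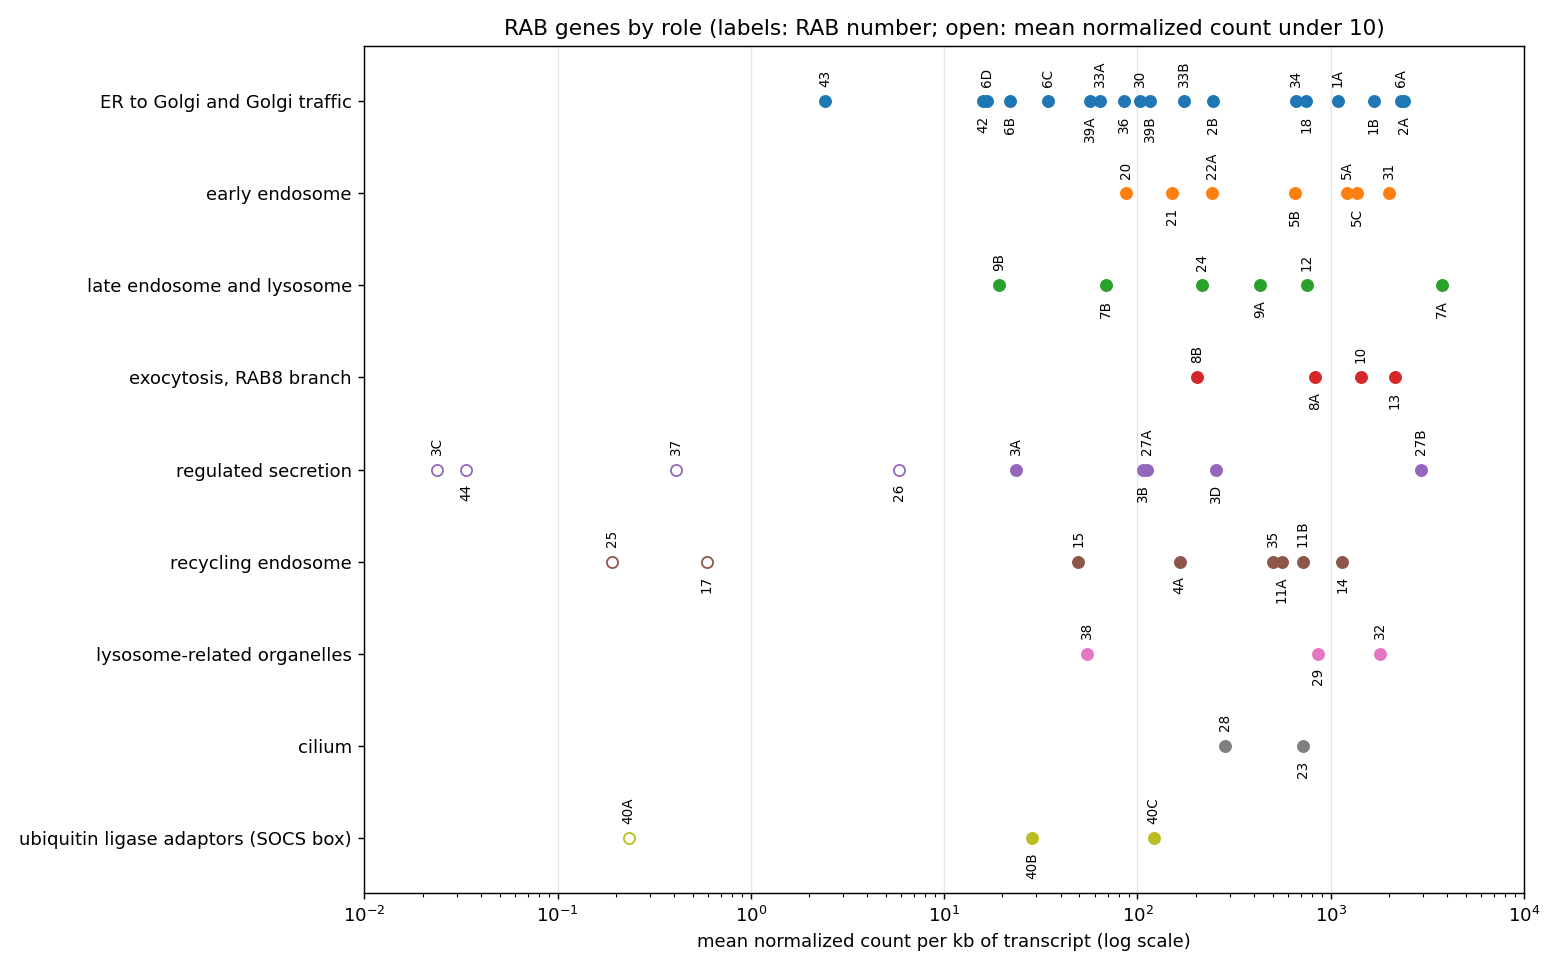
Mean normalized count per kilobase of transcript (log axis) of each RAB, in a row for each role, where labels give the RAB number and open circles mark the 7 members with a mean normalized count under 10. RAB7A at 3780 and RAB27B at 2928 stand apart from the rest of their rows, while the 4 members of the RAB8 branch lie between 203 and 2138.

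Many RABs come as close copies of one another, which asks how evenly a pair was used. Protein identity was computed between all members from the annotated coding sequences, and 11 pairs were each other's closest relative at 75% identity or more. Both members reached the minimum in 9 pairs. The ratio of higher to lower per kb in these 9 ran from 1.13 to 106 with a median of 2.06, it was under 2 in 3 pairs and over 10 in 2.

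By transcript length, the pairs under 2 times were RAB5C with RAB5A (87.4% identical, 1.13 times), RAB11B with RAB11A (92.1%, 1.28 times) and RAB1B with RAB1A (93.5%, 1.53 times), the last at 1667 against 1087 per kb. For RAB11 and RAB5 the order rested on transcript length. Per kilobase of coding sequence RAB11A stood 2.42 times above RAB11B and RAB5A 1.37 times above RAB5C, and the RAB1 pair differed by 1.22 times. RAB39B stood 2.06 times above RAB39A (78.4% identical), at 117 against 56.6 per kb, and 3.80 times above it per kilobase of coding sequence.

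In 4 pairs the higher gene held from 80.3% to 99.1% of the pair's level per kb of transcript. RAB6A, the general Golgi form, was 106 times RAB6B, the form known from brain, although the proteins are 90.9% identical, at 2307 against 21.8 per kb. RAB9A was 22.3 times RAB9B (76.1%), at 430 against 19.3 per kb. RAB2A was 9.71 times RAB2B (86.7%), at 2387 against 246 per kb, and RAB8A was 4.07 times RAB8B (82.6%). Per kilobase of coding sequence these ratios were 62.9 for RAB6, 12.03 for RAB9, 12.7 for RAB2 and 2.18 for RAB8, all in the same direction.

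For the last 2 pairs no ratio is given, since the lower gene was under the minimum. RAB40B (88.4% identical to RAB40A) had a mean normalized count of 109 against 0.458. RAB3A (84.5% identical to RAB3C) had 35.1 against 0.210.

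**Figure D4:**
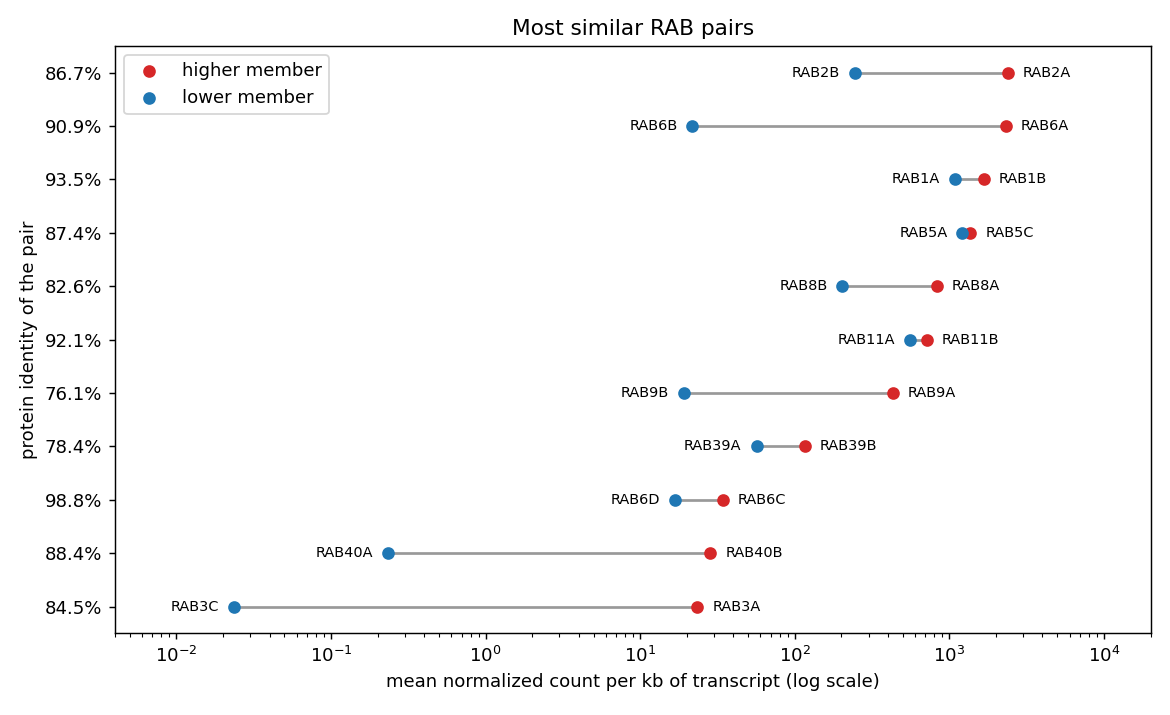
Levels of the 11 closest RAB pairs as mean normalized count per kilobase of transcript (log axis), with the higher member in red, the lower in blue and the protein identity of the pair on the vertical axis. The RAB5, RAB11 and RAB1 pairs differ by 1.13 to 1.53 times on this scale, where by coding length RAB5A and RAB11A are the higher, and RAB6A and RAB6B differ by 106 times.

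RAB6C and RAB6D are the closest pair of all, with 98.8% identical residues. Both are intronless, and RAB6C shares 89.9% and RAB6D 90.4% of its aligned residues with RAB6A. Their coding sequence runs to 762 bases against 624 in RAB6A, so each carries an added tail beyond the point where RAB6A stops. Over the shared 624 bases, RAB6C differed from the canonical RAB6A transcript at 51 and RAB6D at 50. Much of this came from one stretch, coding bases 151 to 240, which is shown because annotated RAB6A transcripts use different exons there. Form 1 is the canonical transcript, and form 2 is the annotated RAB6A transcript with the fewest differences from it. Capitals mark the bases that differ from form 2.
RAB6A form 1 (chromosome 11, minus strand): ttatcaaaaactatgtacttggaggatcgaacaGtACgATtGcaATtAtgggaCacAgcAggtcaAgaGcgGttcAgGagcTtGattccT
RAB6A form 2 (chromosome 11, minus strand): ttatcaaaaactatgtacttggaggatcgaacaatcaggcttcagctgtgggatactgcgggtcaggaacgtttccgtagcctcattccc
RAB6C (chromosome 2, plus strand): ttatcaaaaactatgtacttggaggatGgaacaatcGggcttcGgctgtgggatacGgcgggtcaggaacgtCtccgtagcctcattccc
RAB6D (chromosome 2, minus strand): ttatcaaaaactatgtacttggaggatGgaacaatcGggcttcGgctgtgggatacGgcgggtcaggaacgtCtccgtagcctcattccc

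In this stretch RAB6C and RAB6D each differed from form 1 at 23 bases and from form 2 at 5, and the 2 RAB6A forms differed from each other at 20. RAB6C was at 34.4 per kb and RAB6D at 16.7, against 2307 for RAB6A. Of the 50-base windows of the RAB6C transcript, 56.3% were also found in a transcript of another gene, RAB6D or RAB6A, and of those of RAB6D 45.9%. How the authors' counting treated reads that match several genes is not given in the sources used here, so the levels of RAB6C and RAB6D are uncertain.

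Other members shared sequence with another gene, either a similar copy or a gene that overlaps them. In all, 8 members had more than 10% of their 50-base windows in another gene and 31 had none. RAB43 was the extreme, with 90.7% of its windows shared and 88.3% of its exon bases covered on the same strand by ISY1-RAB43, a readthrough gene. RAB13 shared 56.9%, RAB24 57.1% (with MXD3), RAB5C 43.9%, RAB40A 25.5% (with RAB40AL) and RAB6A 21.2% (with RAB6C and RAB6D). Exons of RAB13 and RAB5C lie under unnamed genes on the same strand. The levels of these members are uncertain to the extent that reads in the shared parts were split or dropped, and RAB13 and RAB5C are among the 10 highest.

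RABs work only with their partners, and 4 lists of those were read from the same table. Of the genes listed for delivering RABs to membranes and prenylating them, 7 of 7 reached the minimum, with a median of 378 per kb. GDI2, a GDP dissociation inhibitor that keeps inactive RABs soluble, led the list at 4837 per kb. The β subunit of the geranylgeranyl transferase, RABGGTB, was at 1971 per kb and its α subunit RABGGTA at 87.2. RABAC1, a membrane protein that takes RABs from such inhibitors, was at 1047 per kb, the escort proteins CHML and CHM at 378 and 323, and RABIF, which stabilizes nucleotide-free RABs, at 256.

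Of 35 exchange factors, 33 reached the minimum, with a median of 176 per kb. DENND5A, which acts on RAB39, was the highest at 711 per kb. It was followed by CCZ1B, a subunit of the exchange factor of RAB7, at 609 and ANKRD27, which acts on RAB21, at 403. CCZ1B has a near-identical copy, CCZ1, so its level is uncertain. Of 34 GTPase-activating proteins with a row, 33 reached the minimum, with a median of 201 per kb, and TBC1D15, which acts on RAB7, was the highest at 961 per kb, before TBC1D2 at 834 and TBC1D9B at 711.

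Effectors were more mixed, with 37 of 43 at the minimum and a median of 71.8 per kb. OPTN, an effector of RAB8, led at 1722 per kb, then MICALL1, which links RAB8 and RAB35 to recycling tubules, at 1418 and USO1, the tether recruited by RAB1, at 1109. The 6 effectors under the minimum were RPH3A, RPH3AL, SYTL1, UNC13D, MYRIP and MYO5B. Their mean normalized counts were 8.20 for RPH3AL, 4.45 for UNC13D and 2.54 for SYTL1. MYO5B was at 0.437, MYRIP at 0.399 and RPH3A at 0.172. Other effectors of the list reached the minimum, among them MLPH at 1222, MYO5A at 1209 and RIMS2 at 638. SYTL2 was at 360, SYTL3 at 100, SYTL4 at 38.8, MYO5C at 19.8 and EXPH5 at 15.3. How these effectors divide among RAB27B and other RABs was not tested. SYTL5 and the GTPase-activating protein TBC1D10C had no row.

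**Figure D5:**
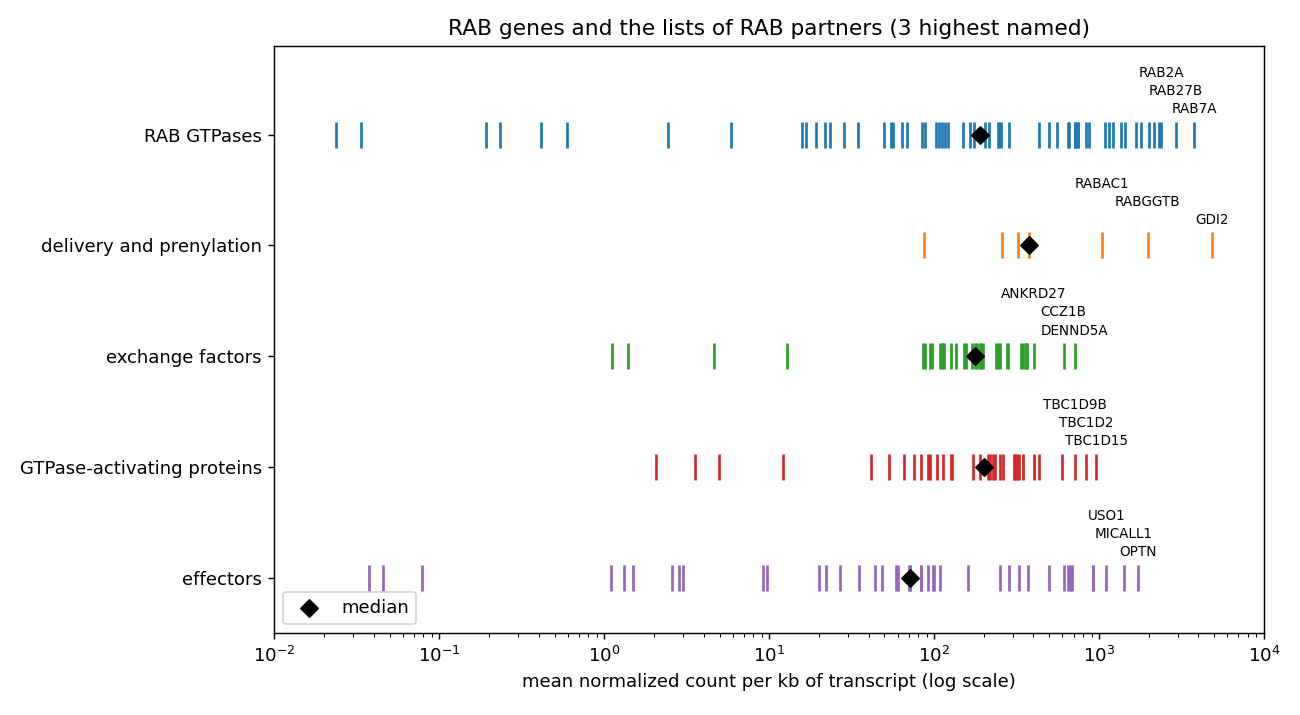
Mean normalized count per kilobase of transcript (log axis) of each RAB and of each gene in the 4 partner lists (vertical ticks), with the median of each list as a diamond and the 3 highest genes named. The delivery and prenylation list has the highest median, 378 per kb, and the effectors the lowest, 71.8 per kb.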

How the data were processed

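Total RNA of BT-549/tet-WDR5shRNA cells (3 vehicle and 3 DOX libraries) was sequenced as strand-specific poly(A) libraries. According to the methods and the submitters' processing notes, the authors aligned reads to GRCh38 (release number 74 in the methods) with STAR and normalized and compared them with DESeq2. Tool versions, the read counter and the annotation it used are not given in the sources used here. The deposited table holds, per gene, the mean normalized count over all libraries (a signal that is never negative, made by the authors) and 5 columns of the authors' comparison of DOX with vehicle (log2 fold change, its standard error, statistic and p-values), which were not used. No column holds single libraries, so the planned edgeR test on counts was not run and depth is unknown. Poly(A) selection and an average over both groups bound what the means can show.

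Symbols were matched to GENCODE 44 (GRCh38): 17729 directly, 593 through an older symbol in RefSeq and 1470 not. Levels were divided by the length of the canonical transcript. Proteins were translated from the coding sequences, since no protein table was used, and aligned end to end with Biopython 1.88 (BLOSUM62, gap penalties of 11 and 1, free end gaps). Identity counts aligned residues only. Shared windows are 50 bases long, searched in all transcripts of other genes. Scripts ran in Python 3.11.15 with numpy 2.4.6 and were tested on simulated data.

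Named are the 10 highest members, the highest of each role, close pairs (75% identity or more), members under a mean normalized count of 10, the 3 highest partners per list, all listed delivery genes and all markers. A further delivery gene is not reported here and stands outside the counts of that list. Some other members are named to complete a role, and effectors under the minimum are named beside some that reached it. Members, roles and lists were chosen with earlier results of these data known, and RAB6D was added to its role group after the table was seen.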

Additional observations from a re-analysis of the deposited data

How the results depend on the processing

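No error is known for any mean, so an alternative was taken to move a value when it changed it by over 1.5 times. By that rule the number of detected RABs, the share of the 10 highest, the median percentile and the number of close pairs did not move. The rule is weak for 2 of these. The number of detected RABs cannot exceed 60. A percentile of 50 marks the middle gene, and the median percentile of 62.7 came closer to it among detected genes and among protein-coding genes. The number of RABs at the minimum was 55, 50 and 46 with minimums of 1, 50 and 100, the share of the 10 highest was 63.3% by coding length and 62.6% with no length, the median percentile was 53.9 among detected genes, 68.5 with no length and 56.9 among protein-coding genes (added after seeing the data), and the number of close pairs was 13 and 9 at 70% and 80% identity. The shares of 3 roles moved: late endosome and lysosome (14.7% to 9.40%, 9.66% and, without RAB7A, 4.63%), regulated secretion (9.58% to 19.4% and 19.9%) and lysosome-related organelles (7.60% to 4.15% and 4.13%) by coding length and with no length. Only RAB7A was left out in this way. RAB27B held 85.4% of the regulated secretion level and RAB32 66.3% of the lysosome-related organelle level. Shares without those genes were not computed. Of the C-terminal classes, 2 moved when 5 residues were read, from 9 to 15 and from 16 to 10. By coding length (added after seeing the data) RAB11B over RAB11A turned from 1.28 to 0.413 and RAB5C over RAB5A from 1.13 to 0.730, and the RAB6, RAB8, RAB9 and RAB39 ratios moved without turning. No paired analysis was possible because the table has no columns of single samples, and the other settings of the DOX test (DESeq2, no filter, leaving out each replicate, the replicate block) were not run for the same reason. A pooled mean cannot show whether a low RAB was present in 1 group only.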
